A study of Homo sapiens with 6 samples.

Results

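The pyruvate dehydrogenase gene set described here holds 10 genes, among 58051 gene identifiers counted in A172 cells, an established human glioblastoma line. It comprises the 4 kinases PDK1, PDK2, PDK3 and PDK4, the catalytic phosphatase subunits PDP1 and PDP2, and the 4 complex subunits PDHA1, PDHB, DLAT and PDHX. The set was chosen by the measured rise of PDK4 in cells carrying RBFOX1 against cells carrying GFP, set beside the other kinases, the phosphatases and the subunits. The differences between conditions given below for these 10 genes are therefore descriptions, with no test, and each member was found by its symbol and Ensembl identifier. All 10 entered the fit, which required a sum of 10 counts over the 6 libraries.

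A172 cells were transduced with lentivirus made in HEK293T cells, a human kidney line used for packaging, to give stable lines carrying either the plasmid pLX317-RBFOX1 or the control pLX317-GFP. All groups share the parental line, the packaging plasmids psPAX2 and pMD2.G, polybrene at transduction and DMEM with fetal bovine serum. Each condition had 3 libraries, described as biological replicates, of rRNA-depleted, stranded, paired-end RNA, and their identity as clones or pools is not given in the sources used here. RBFOX1 is an RNA-binding protein normally abundant in neurons and muscle, and its level here is set by the vector, not by the endogenous gene. It had 4, 0 and 1 counts in the GFP libraries and 10276, 16467 and 21451 counts in the RBFOX1 libraries, matching every label.

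The complex sits in the mitochondrial matrix and turns pyruvate into acetyl-CoA, so joining glycolysis to the tricarboxylic acid cycle. The kinases phosphorylate the E1 alpha subunit and switch the complex off, whereas the phosphatases remove the phosphate and switch it on. PDK4 is best known as the kinase that rises with fasting and fatty acid use in heart and muscle, and PDK1 as a hypoxia-responsive kinase in tumours. Transcript counts alone give neither protein amounts nor the phosphorylation of the complex.

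RBFOX proteins bind TGCATG in RNA, read with U for T, and sites in 3′ untranslated regions (3′ UTRs) are printed because that is where the study looked for effects on mRNA stability. Those 6 letters were searched for on the transcript strand in the 3′ UTR of the canonical transcript (GENCODE release 44, GRCh38), a search that included no other motif. Of 19539 such 3′ UTRs, 33.3% held at least 1 match. The windows below run 5′ to 3′ with up to 12 bases on either side, the match in capitals, and the last PDK1 window stops at the transcript end. All lie on the plus strand, PDK1 at chr2:172599630-172599635, chr2:172600280-172600285, chr2:172601003-172601008 and chr2:172608654-172608659, PDP2 at chr16:66886909-66886914, and PDHA1 at chrX:19359798-19359803.
PDK1 site 1: tgaagaatttttTGCATGttaaaaaaagca
PDK1 site 2: cagttacagtatTGCATGaaaatacagtat
PDK1 site 3: actggggttaacTGCATGaggtcaaaaaga
PDK1 site 4: tgattaaaatccTGCATGttctcctgca
PDP2 site: agaaaatgtgatTGCATGtggtagttgtgg
PDHA1 site: gcaggtagtaatTGCATGcagtttgtacat

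Matches were found in 4 of the 10 members and in none of the other 6. PDK1 has a 3′ UTR of 12700 nt, and 97.7% of 3′ UTRs within 20% of that length held a match. The nearest PDK1 match lay 3661 nt past the stop codon. PDP2, with a 3′ UTR of 5227 nt, carried 2 matches, 1035 and 1946 nt past the stop codon, of which only the first is shown above. In its length class 78.9% held at least 1. The PDHA1 match lay 145 nt past the stop codon. Its 3′ UTR has 2065 nt, a length at which 47% held one. PDK2 and PDK4, with 3′ UTRs of 2055 and 2142 nt, had none, against 46.9% and 48.1% of their length classes with a match. PDK3, PDHB, DLAT and PDHX had none either. Their searched 3′ UTRs had 350, 404, 1869 and 956 nt, and 9.6%, 11.2%, 42% and 25.2% of those length classes held a match. In the 2 shortest, PDK3 and PDHB, a match was thus uncommon at that length. Their other annotated transcripts, the longest of 12720 and 4459 nt, were not searched. A match describes the letters in the annotated transcript and not a bound site.

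The libraries held 7433414 to 23249221 counts on genes, RBFOX1 replicate 1 being the shallowest and GFP replicate 1 the deepest. A normalized count below is a count divided by the library's TMM-scaled size, and 3 counts, the limit that a count of 0 allows, are worth 1.82 normalized counts in the deepest and 5.44 in the shallowest library. In edgeR's quasi-likelihood fit over 20536 genes, 46.7% passed an adjusted p of 0.05, 23.7% higher and 22.9% lower in RBFOX1 cells, and the normalized counts of the 2 conditions did not overlap for 53.4%. Of the members, 7 passed that threshold, 5 higher and 2 lower, and 8 did not overlap. Because the set was selected on this contrast and the background is so high, nothing is read from those counts. The glial markers VIM, CD44 and OLIG2 were lower and NES and SOX2 higher, with S100B and AQP4 at 3 counts or fewer in every library. Summed over the list of 8, which also holds GFAP, they ran from 76162 to 77780 normalized counts in GFP and from 50432 to 51190 in RBFOX1 cells. The summed epithelial list (EPCAM, CDH1, KRT8, KRT18 and KRT19) ran from 8772 to 9036 normalized counts in GFP and from 32374 to 33716 in RBFOX1 cells, and 4 of its 5 genes were higher. CDH1 stood at no more than 5 counts in any library. The part of this shift in the results below was not tested, and in bulk RNA fewer cells of a type and less RNA per cell cannot be told apart.

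PDK4, whose rise chose the set, was close to the detection limit. It had 1, 3 and 2 counts in the GFP libraries and 6, 8 and 8 counts in the RBFOX1 libraries. On the normalized scale these were 0.607, 3.50 and 2.11 in GFP and 10.9, 8.88 and 7.30 in RBFOX1 cells. Every RBFOX1 library was above every GFP library, but every GFP library was at or below the 3-count limit. The pooled 22 counts against 6 gave a ratio of 4.97 after scaling, with an exact 95% interval of 1.95 to 14.98 that gives the precision of the counts only. It is no test of the difference, since PDK4 chose the set and reached the 10-count minimum only through the RBFOX1 libraries. The fitted log2 fold change was 2.23 with a standard error (SE) of 0.60. It was 1.60 without GFP replicate 1 and 2.77 without GFP replicate 2. The gene lies on GRCh38 chromosome 7, at 95583499 to 95596516 on the minus strand, and its antisense neighbour PDK4-AS1 had 4 counts in all.

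PDK2, the most widely expressed kinase of the family, had the larger change in transcripts counted. Its normalized counts were 262, 283 and 249 in GFP and 370, 384 and 444 in RBFOX1 cells. The conditions did not overlap, and the difference was 1.53-fold (log2 0.61, SE 0.09). PDK2 lies on chromosome 17, at 50094737 to 50112152 on the plus strand.

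PDK1 and PDK3 differed little. PDK1, on chromosome 2 at 172555373 to 172608669, had 141, 128 and 146 normalized counts in GFP and 156, 137 and 150 in RBFOX1 cells. PDK3, an X-linked kinase at 24465244 to 24550466, had 133, 126 and 123 normalized counts in GFP and 149, 141 and 112 in RBFOX1 cells. The conditions overlapped for both, with log2 differences of 0.07 (SE 0.11) and 0.04 (SE 0.12). The PDK3 value lay on either side of zero when single RBFOX1 libraries were left out, at -0.02 without replicate 1 and -0.01 without replicate 2.

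**Figure D1:**
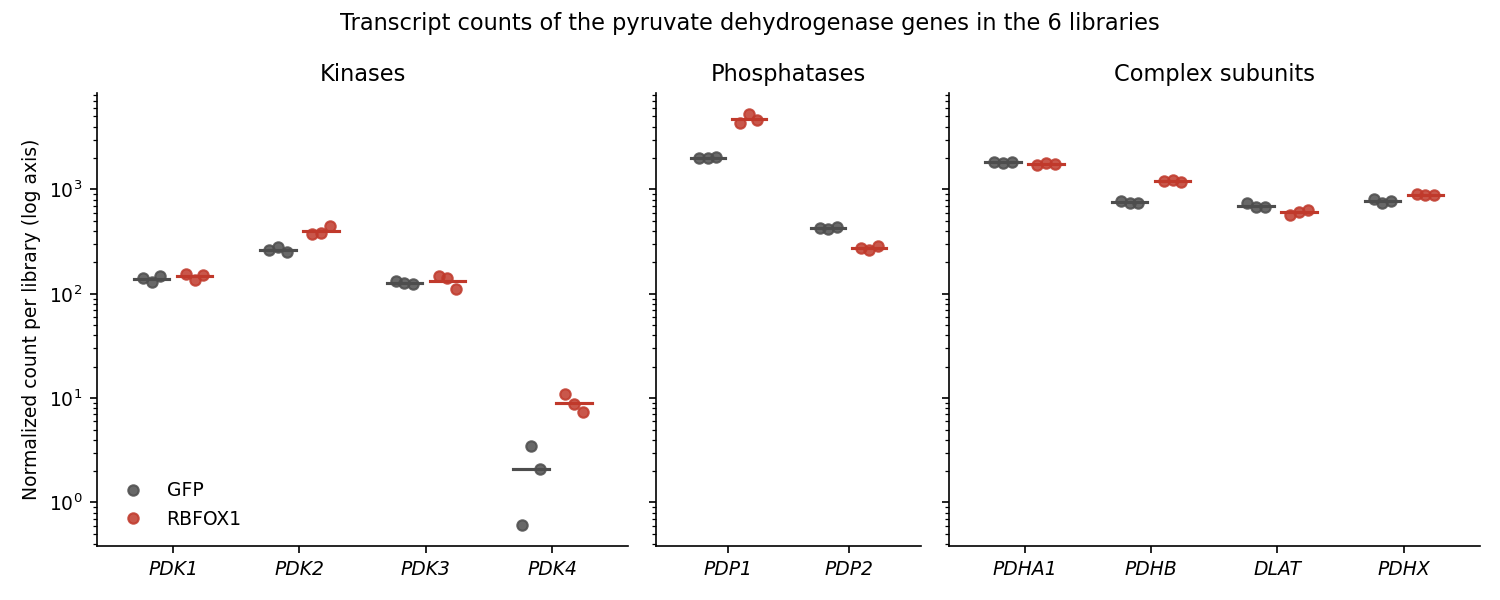
Normalized count of each member in each of the 6 libraries on a log axis, with GFP in grey, RBFOX1 in red, points for libraries and horizontal bars for the mean of 3. PDK4 sits near the bottom at 0.607 to 10.9 normalized counts, while PDP1 separates from 1982 to 2026 in GFP to 4322 to 5274 in RBFOX1 cells.

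Levels can be compared between genes only per length, here as reads scaled by the length of the gene's merged exons and by library size (RPKM). Among the kinases in GFP cells, PDK2 stood at 3.48 ± 0.225 RPKM (SD, n = 3), PDK1 at 0.674 ± 0.0450, PDK3 at 0.526 ± 0.0206 and PDK4 at 0.0329 ± 0.0230. On this length the order was the same in RBFOX1 cells, with PDK2 at 5.26 ± 0.516, PDK1 at 0.716 ± 0.0482, PDK3 at 0.553 ± 0.0792 and PDK4 at 0.143 ± 0.0284 RPKM. No neighbours in this order overlapped in either condition, but the order of PDK1 and PDK3 depends on the length used. With the longest transcript PDK3 stood above PDK1, at 0.722 against 0.711 RPKM in GFP and 0.759 against 0.755 in RBFOX1 cells, and with the coding length PDK1 stood above PDK3, at 7.63 against 7.52 and 8.10 against 7.91, each difference being smaller than the SD between libraries. The summed kinase level went from 4.72 ± 0.198 to 6.67 ± 0.416 RPKM, a ratio of 1.41.

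PDK2 made up most of that sum. Its share (mean ± SD, n = 3) was 73.8% ± 1.67 in GFP and 78.7% ± 2.90 in RBFOX1 cells, with library values of 72.3% to 75.6% and 75.9% to 81.7%. PDK4 supplied 0.691% ± 0.464 and 2.16% ± 0.535, so even at its higher level it was the least abundant kinase transcript. PDK1 went from 14.3% ± 1.54 to 10.7% ± 0.911 and PDK3 from 11.2% ± 0.554 to 8.36% ± 1.65. With the coding length in place of the merged exons, an alternative chosen after the data were seen, the PDK2 share was 50.5% in GFP and 58.6% in RBFOX1 cells, since PDK1 and PDK3 have long annotated exons.

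PDP1, the catalytic subunit of the calcium-stimulated phosphatase that reactivates the complex, showed the largest difference among members with more than a few counts. Its normalized counts were 2005, 1982 and 2026 in GFP and 4322, 5274 and 4610 in RBFOX1 cells. The lowest RBFOX1 library was above every GFP library, and the difference was 2.37-fold (log2 1.24, SE 0.06). Per length it went from 25.8 ± 0.283 to 60.9 ± 6.27 RPKM (SD, n = 3). Its 3′ UTR of 2395 nt held 2 TGCATG matches, 427 and 1159 nt past the stop codon, and 52.8% of 3′ UTRs of similar length held at least 1. The gene lies on chromosome 8, at 93857807 to 93926068 on the plus strand. The lncRNA MIR378D2HG overlaps it on the opposite strand, with 52 counts summed over the libraries.

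PDP2, the other catalytic phosphatase subunit, went the opposite way. It had 429, 416 and 433 normalized counts in GFP and 278, 265 and 289 in RBFOX1 cells. The conditions did not overlap, and the difference was 0.651-fold (log2 -0.62, SE 0.08). It lies on chromosome 16, at 66878589 to 66895754 on the plus strand. In GFP cells its level of 3.73 ± 0.0786 RPKM overlapped that of PDK2, with an order that changed with the gene length used, whereas in RBFOX1 cells it stood at 2.43 ± 0.102 RPKM, below PDK2 in every library.

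**Figure D2:**
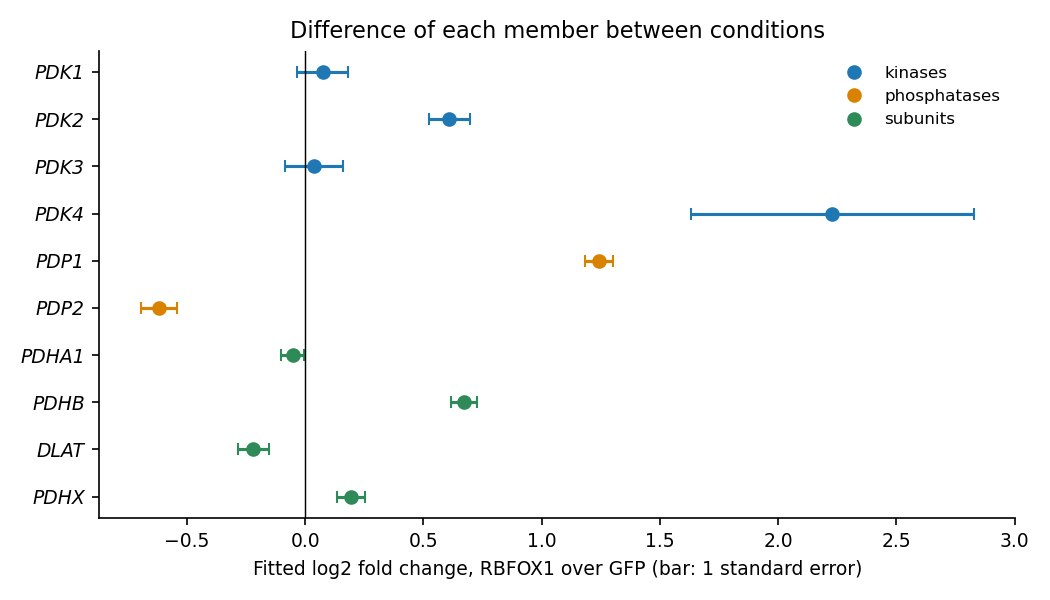
Fitted log2 fold change of each member, RBFOX1 over GFP, with bars of 1 SE, coloured by role. PDK4 has the largest value, 2.23, and the widest bar, while PDP1 at 1.24 and PDP2 at -0.62 lie on either side of zero.

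The 4 subunits did not move together. PDHA1, the E1 alpha subunit that the kinases phosphorylate, had 1822, 1803 and 1819 normalized counts in GFP and 1714, 1772 and 1762 in RBFOX1 cells. All 3 RBFOX1 libraries were below the GFP libraries, by a log2 difference of only -0.05 (SE 0.05). It lies on chromosome X at 19343893 to 19361718.

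PDHB, the E1 beta partner of PDHA1 in the E1 tetramer, had 781, 737 and 743 normalized counts in GFP and 1206, 1228 and 1176 in RBFOX1 cells. The conditions were far apart relative to their spread, at 1.59-fold (log2 0.67, SE 0.06). PDHB lies on chromosome 3 at 58427630 to 58433857, on the minus strand.

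DLAT, the E2 acetyltransferase core, had 744, 677 and 679 normalized counts in GFP and 571, 602 and 630 in RBFOX1 cells, a log2 difference of -0.22 (SE 0.07). PDHX, the E3-binding protein that anchors the E3 enzyme to that core, had 803, 746 and 770 normalized counts in GFP and 900, 879 and 884 in RBFOX1 cells, a log2 difference of 0.19 (SE 0.06). Neither gene overlapped between conditions, and the differences were small. Without RBFOX1 replicate 1 the DLAT value was -0.18, and without GFP replicate 2 the PDHX value was 0.16. Both genes lie on chromosome 11, DLAT at 112025408 to 112064404 and PDHX at 34915829 to 35020591.

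Ratios between members within one library do not depend on the scaling of libraries. Their values do depend on the gene length used, here the merged exons, as do the summed levels and their ratios below. PDP1 to PDP2, in RPKM, was 6.86, 6.99 and 6.86 in GFP and 22.8, 29.1 and 23.4 in RBFOX1 cells, so PDP1 supplied 87.3% ± 0.119 and then 96.1% ± 0.480 of the phosphatase level. PDHA1 to PDHB was 2.22, 2.33 and 2.33 in GFP and 1.35, 1.37 and 1.43 in RBFOX1 cells. DLAT to PDHX went from 0.446 ± 0.0108 to 0.334 ± 0.0194. None of these ratios overlapped between conditions. They restate the differences of the members, and 53.4% of single genes tested did not overlap, so nothing is read from that.

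The summed phosphatase level went from 29.5 ± 0.360 to 63.3 ± 6.20 RPKM, a ratio of 2.15 against 1.41 for the kinases. The phosphatase to kinase ratio of transcripts was accordingly 6.29, 5.92 and 6.59 in GFP and 9.04, 10.9 and 8.64 in RBFOX1 cells, a ratio of means of 1.52. PDHA1 to the summed kinases went from 5.61 ± 0.260 to 3.82 ± 0.214. Thus per kinase transcript there was more phosphatase and less PDHA1 transcript in RBFOX1 cells. Neither measure overlapped between conditions, but both restate the member differences given above and are descriptions.

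**Figure D3:**
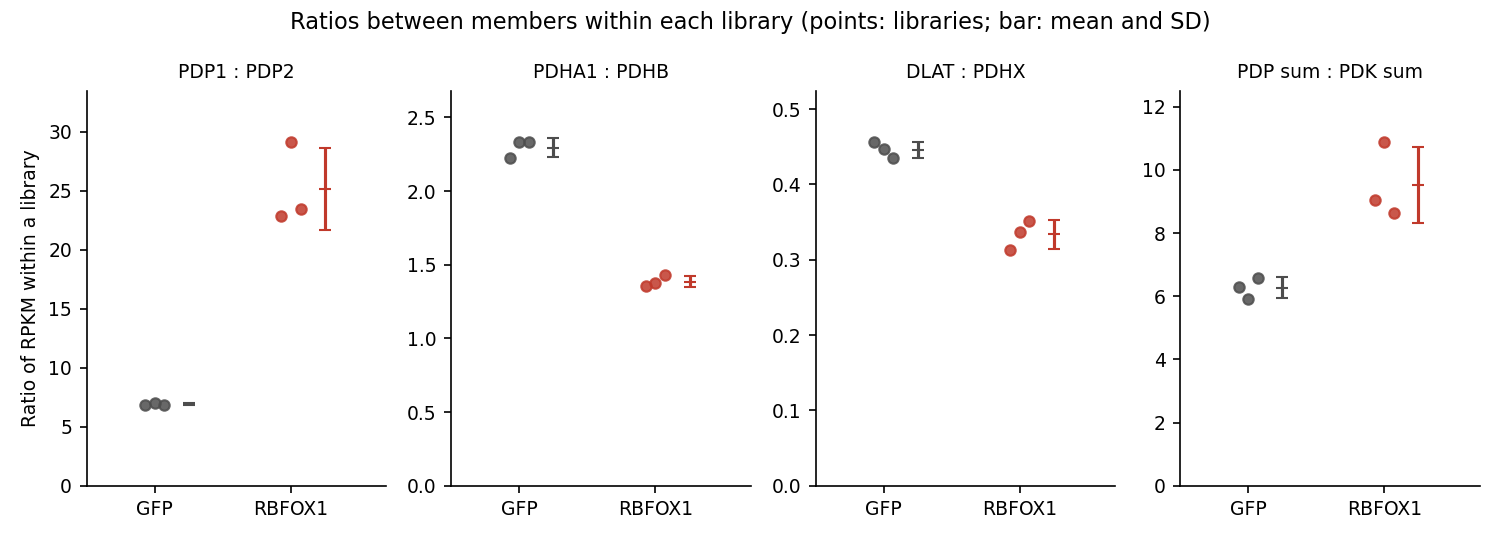
Ratios of RPKM within each library for PDP1 to PDP2, PDHA1 to PDHB, DLAT to PDHX, and the summed phosphatases (PDP) to the summed kinases (PDK), with points for libraries, bars for the mean and SD of 3, and axes from 0. The first and last ratios are higher in every RBFOX1 library, with means of 25.1 against 6.90 and 9.52 against 6.27, and the 2 subunit ratios are lower.

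Across all members the order of levels in GFP cells was PDHA1, PDP1, PDHX, PDHB, DLAT, PDP2, PDK2, PDK1, PDK3 and PDK4. PDHA1 at 26.4 ± 0.151 and PDP1 at 25.8 ± 0.283 RPKM were nearly level, and PDP2 and PDK2 were the only neighbours that overlapped. In RBFOX1 cells PDP1 led, followed by PDHA1 at 25.5 ± 0.451, PDHB at 18.4 ± 0.398, PDHX at 17.2 ± 0.207, DLAT at 5.74 ± 0.280 and PDK2. There DLAT and PDK2 overlapped, and PDHB had passed PDHX, which stood above it in GFP cells at 14.98 ± 0.554 against 11.5 ± 0.369 RPKM. These orders depend on the length used. With the coding length PDHB stood above PDHX in both conditions, at 50.3 against 37.0 RPKM in GFP cells. With the longest transcript PDHX stood above PDHB in both, at 21.0 against 12.2 in GFP and 24.1 against 19.4 in RBFOX1 cells. With the coding length PDK2 also stood above DLAT in RBFOX1 cells, at 23.5 against 22.3. On that length PDHA1 and PDP1 were further apart in GFP cells, at 111.5 against 89.5.

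The rest of the complex and the enzymes that lipoylate it gave no change past the threshold. None of 5 tested genes of this list passed in edgeR or in DESeq2, and 1 had an unadjusted edgeR p under 0.05. Of all genes tested, 46.7% passed in edgeR. The list had a median log2 difference of 0.06 against 0.01 over all genes tested. DLD, the E3 dehydrogenase shared with the other 2-oxoacid dehydrogenases, had a log2 difference of -0.09 (SE 0.06), and PDPR, the regulatory phosphatase subunit, 0.06. PDPR has near-identical pseudogene copies, so its count is uncertain. LIAS, which makes the lipoyl group, stood at 0.23, LIPT1 at -0.17 and LIPT2 at 0.38, and PDHA2, the testis form of E1 alpha, had 2 counts in GFP replicate 1 and none elsewhere.

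Around the pyruvate branch point, 3 of 16 tested genes rose and 4 fell, with a median of -0.10. These were 18.8% and 25%, against 23.7% and 22.9% of all genes tested. LDHA, which reduces pyruvate to lactate, rose from 5056 ± 327 to 8111 ± 541 normalized counts (log2 0.68, SE 0.06, edgeR adjusted p = 4.59e-09), whereas LDHB gave 0.01. PC, which carboxylates pyruvate to oxaloacetate, rose by 0.63 on the log2 scale. ME1, the cytosolic malic enzyme, fell by 0.87 and SLC16A3, a lactate exporter, fell by 0.25. The mitochondrial pyruvate carrier subunits MPC1 and MPC2 did not pass, at -0.22 and -0.10.

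The sister complexes gave 1 gene higher and 2 lower of 9 (11.1% and 22.2%, against 23.7% and 22.9% of all genes tested). OGDHL, a tissue-restricted form of the 2-oxoglutarate dehydrogenase E1, rose from 67.3 ± 1.05 to 184 ± 16.0 normalized counts (log2 1.44, SE 0.12, edgeR adjusted p = 3.51e-09), while the general form OGDH fell by 0.23. PPM1K, the phosphatase of the branched-chain complex, fell by 0.32, a call that DESeq2 did not make (adjusted p = 0.0594). BCKDK, the kinase related to the PDKs that acts on that complex, stood at -0.06.

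In the tricarboxylic acid cycle 5 of 15 genes rose and 3 fell (33.3% and 20%), with a median of 0.00. Over all genes tested these shares were 23.7% and 22.9%. IDH2 at 0.49 and FH at 0.31 led the rises, and SDHD at -0.49 was the largest fall. Fatty acid oxidation gave 6 higher and 4 lower of 24 (25% and 16.7%), with a median of -0.02. SLC25A20, which carries acylcarnitines across the inner mitochondrial membrane, rose by 0.62 and CPT1A, which forms them from acyl-CoA, rose by 0.60, whereas ECI2 fell by 1.06 and HADHB, of the trifunctional protein, fell by 0.42. Neither list moved in 1 direction, and neither did all genes tested.

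Lists of genes controlled by regulators that are known to act on PDK genes were counted next. These lists were chosen with earlier results of these data known, so the numbers of genes passing are descriptions. The FOXO target list had 12 of 16 tested genes higher and 0 lower, in edgeR as in DESeq2 and also at an unadjusted p under 0.05. Those higher were 75%, against 23.7% of all genes tested, and the median log2 difference was 1.05. FBXO32, a ubiquitin ligase of muscle wasting, rose by 1.79 and BCL2L11, which promotes apoptosis, by 1.75. TXNIP, named after its values were seen, rose from 4064 ± 230 to 7979 ± 438 normalized counts. PCK1, likewise named afterwards, had 0 counts in all GFP libraries and 25, 36 and 38 in RBFOX1 cells, at least 14.1-fold higher against a floor of 3 counts per library. PCK1 reached the 10-count minimum only through the RBFOX1 libraries, so it could not have been called lower.

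The glucocorticoid receptor list had 8 of 10 higher and 0 lower in edgeR, 0 lower also at an unadjusted p under 0.05, and 6 higher and 0 lower in DESeq2, with a median of 0.50. FKBP5 at 1.49 and DUSP1 at 1.37 were its largest rises among genes with a mean of at least 50 normalized counts. The PPAR list had 7 of 14 higher and 1 lower, with a median of 0.37, and shares 4 genes with the fatty acid oxidation list. FABP3, a fatty acid carrier, rose from 13.0 ± 2.42 to 142 ± 2.22 normalized counts (log2 3.46, SE 0.17, edgeR adjusted p = 1.85e-12). ANGPTL4, named after its values were seen, rose from 6.10 ± 1.81 to 91.5 ± 16.4. The HIF list went both ways, with 2 of 9 higher and 4 lower and a median of 0.00, ADM rising by 2.31 while NDRG1 fell by 1.11 and VEGFA fell by 0.85. Over protein-coding genes tested, 30.3% were higher and 28.8% lower.

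**Figure D4:**
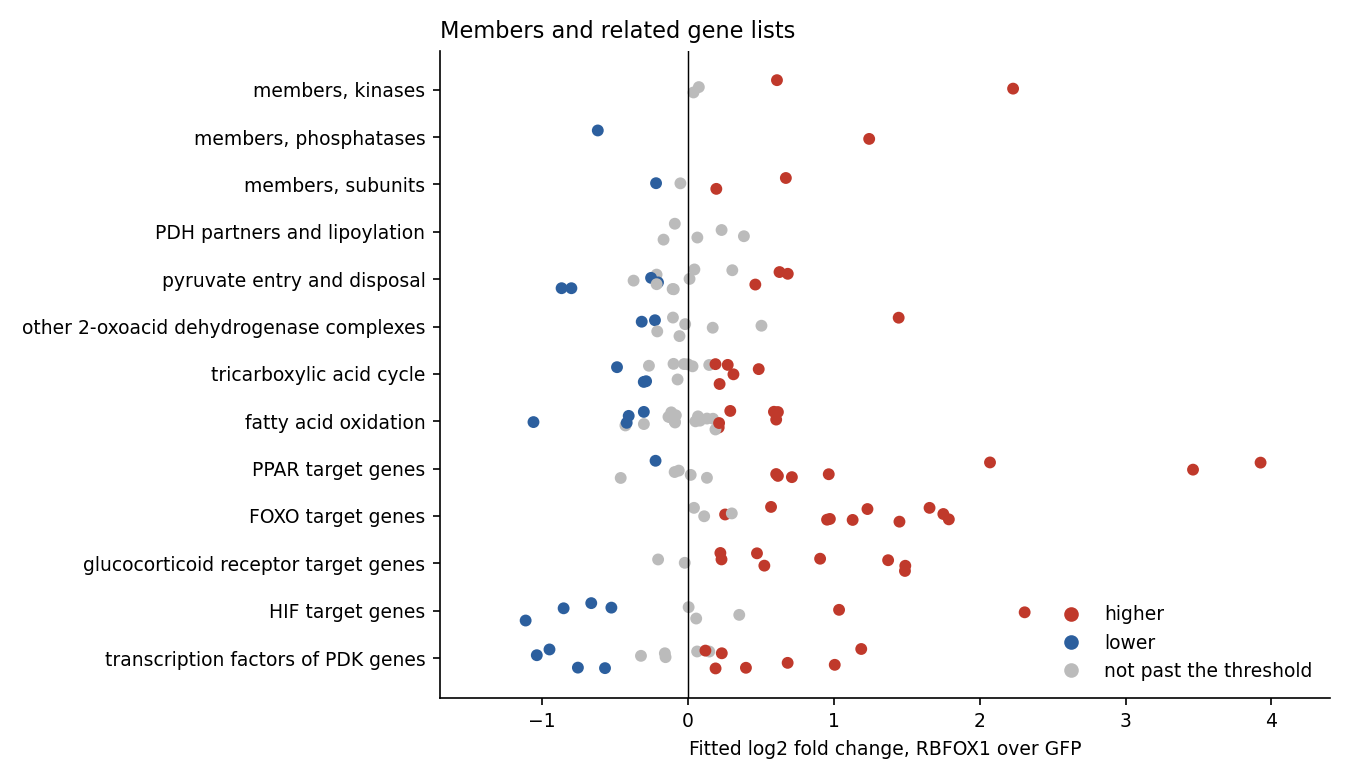
Fitted log2 fold change, RBFOX1 over GFP, of tested genes with a mean of at least 5 normalized counts, by list, in red where higher and blue where lower at an adjusted p of 0.05 and grey otherwise, with vertical scatter for legibility only. TRIM63 and PCK1 lie beyond the right edge. The FOXO and glucocorticoid receptor rows hold no blue point, nor do those of the kinases and of the partners of the complex. The tricarboxylic acid cycle row spans -0.49 to 0.49.

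Of the transcription factors listed for any of the PDK genes, 8 of 17 tested rose and 4 fell, with a median of 0.12. These were 47.1% and 23.5%, against 23.7% and 22.9% of all genes tested. FOXO3 rose by 1.19 and MYC by 1.01, whereas PPARA fell by 1.04 and its coactivator PPARGC1A fell by 0.95.

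Along chromosome 7, the nearest protein-coding genes did not share one direction. On the lower-coordinate side ASB4, 43265 bp away, and PON3, 187123 bp away, were too low to be tested, and PON2, 148169 bp away, fell by 0.31. On the other side DYNC1I1, 175989 bp away, fell by 2.35, SLC25A13, 523703 bp away, rose by 0.49, and SEM1, 885109 bp away, fell by 0.33.

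The 5 genes whose pattern over the 6 libraries lay nearest to PDK4, among 11069 protein-coding genes with a mean of at least 50 normalized counts, were GREB1L, AMOT, SLC43A2, INAVA and PGRMC2. Their Euclidean distances from PDK4 on the centred log2 CPM scale, with 0.1 CPM added to each value, were 0.635, 0.663, 0.665, 0.669 and 0.686. That addition narrows the difference between conditions for a gene as low as PDK4. The fitted log2 differences of the 5 genes ran from 1.36 in GREB1L to 1.83 in PGRMC2, all below the 2.23 fitted for PDK4. With 1 to 8 counts per library behind the PDK4 profile, that order is a description of these libraries.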

How the data were processed

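RNA from 3 GFP and 3 RBFOX1 libraries of A172 cells was sequenced by the study. Per the paper's methods and the labels, the authors used HISAT2 for alignment to GRCh38 and deposited raw counts per gene from HTSeq-count (intersection-strict, Ensembl annotation); tool versions are not given in the sources used here. The share of read pairs assigned to genes was 52.0% to 61.9%, and the remainder, which names no gene, was left out of library sizes. A deposited table of the authors' own DESeq2 comparison (means, log2 fold changes, standard errors, p-values) was not used.

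Genes with at least 10 counts over all libraries were scaled by TMM and fitted with edgeR 4.0.16 (R 4.3.3) by quasi-likelihood, with Benjamini-Hochberg adjustment over all 20536 genes and a threshold of 0.05. All tests were two-sided. Normalized counts were set to a mean effective library of 13877712. RPKM used merged exons of GENCODE release 44, which matched 98.1% of identifiers. Alternatives were DESeq2 1.42.0, limma-voom 3.58.1, other scalings and filters, other gene lengths, a replicate block and leaving out each library. The fit was tested on simulated data, with changes placed only in well-counted genes, so that test does not cover counts as low as those of PDK4. Counting intervals cover counting error only. Libraries within a condition differed by more than sampling noise (chi-square per degree of freedom 1.60 to 8.23). The pairs with GFP replicate 1, also the deepest library, gave 8.08 and 8.23. GFP replicates 2 and 3 gave 1.60, and the RBFOX1 pairs 1.88 to 2.80. The p-values measure the spread between these libraries.

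The members and lists were chosen with earlier results of these data known. Besides the members and RBFOX1, the genes named were the partners of the complex, both pyruvate carriers, LDHA, LDHB, PC, BCKDK and PPM1K, up to 2 rises and 2 falls per related list among called genes with a mean of at least 50 normalized counts, the 3 nearest genes on either side of PDK4, and the 5 nearest to it in pattern. Exceptions are marked, and a few items that these rules select are not reported here. Marker lists for leukocytes and neurons were also summed, at 14.0 to 32.8 and 114 to 130 normalized counts in GFP and 50.8 to 71.1 and 301 to 419 in RBFOX1 cells, with CD3E, RBFOX3 and SNAP25 at 3 counts or fewer in every library.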

Additional observations from a re-analysis of the deposited data

How the results depend on the processing

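Genes passing the threshold numbered 7646 with DESeq2 and up to 9635 with upper-quartile scaling, and 8326 to 9307 with 1 library left out. Of the members, 6 to 7 passed under 13 alternatives, and those lower numbered 1 to 2 with 1 library left out, the 1 arising without RBFOX1 replicate 1. PDK4 ran from 1.60 to 2.77 on the log2 scale and could not be fitted under edgeR's filterByExpr, which removed it. Partners of the complex passing numbered 0 to 1 with 1 library left out, DLD passing without GFP replicate 1. With 1 library left out PDK3 ran from -0.0169 to 0.176, at -0.0128 without RBFOX1 replicate 2. LDHB became -0.0123 with upper-quartile scaling, and -0.0065 to 0.0474 with 1 library left out (-0.0051 without GFP replicate 2).

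Replicate numbers did not pair the libraries, since same-numbered deviations correlated at -0.164, 0.0379 and -0.0539 over 12004 genes. With a replicate block 9046 genes and the same number of members, 7, passed.

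Kinase shares moved with the gene length used. With the longest transcript, PDK1 was 9.99% in GFP and 7.39% in RBFOX1 cells, PDK2 79.3% and 83.4%, and PDK3 10.1% in GFP. With the coding length, chosen after the data were seen, PDK1 was 24.8% and 20.2%, PDK2 50.5% and 58.6%, PDK3 24.4% and 19.8%, and PDK4 1.32% in RBFOX1 cells. Levels in RPKM moved likewise, with GFP first and RBFOX1 second in each pair. With the longest transcript, PDK1 was 0.711 and 0.755, PDK2 5.67 and 8.55, PDK3 0.722 and 0.759, PDP1 33.1 and 78.3, PDP2 4.38 and 2.85, PDHA1 37.8 and 36.4, PDHB 12.2 and 19.4, DLAT 10.2 and 8.79, PDHX 21.0 and 24.1, and PDK4 0.181 in RBFOX1 cells. With the coding length, PDK1 was 7.63 and 8.10, PDK2 15.6 and 23.5, PDK3 7.52 and 7.91, PDK4 0.121 and 0.526, PDP1 89.5 and 211.4, PDP2 19.3 and 12.6, PDHA1 111.5 and 107.5, PDHB 50.3 and 80.3, DLAT 25.95 and 22.3, and PDHX 37.0 and 42.5. Depth limits PDK4 most, since each GFP library held 3 counts or fewer.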
